A study of Mus musculus with 43 samples.

Results

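The comparison described here is that of retinas from female mice given short-chain fatty acids (SCFAs) in the drinking water with retinas from untreated females, 14 days after a laser lesion (14 dpl). It rests on 7 of the 43 libraries of the series, 4 SCFA and 3 control, chosen by the library names in the deposited table, and on all genes in that table. The mice were C57BL/6J females, lasered at the age of 9 weeks to induce choroidal neovascularization (CNV), the growth of choroidal vessels towards the retina that marks wet age-related macular degeneration. Both groups were lasered, so there was no unlesioned retina here. The SCFA group drank 67.5 mM acetate, 40 mM propionate and 25 mM butyrate, as sodium salts, from before the lesion until the retinas were collected. The masses per litre stated beside these molarities put butyrate above propionate, so the doses of these 2 salts are uncertain. Each library was made from a pool of 2 retinas, taken from different animals of a group. The treatment field of the sample labels reads control for every library, so the groups were taken from the titles and library names.

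SCFAs are the products of fibre fermentation by gut bacteria. They act through G protein-coupled receptors, through their uptake by monocarboxylate transporters and their oxidation, and, for butyrate above all, by inhibiting histone deacetylases. Retina after laser injury holds neurons, Müller glia, microglia and vessels in one tissue, and bulk RNA cannot tell fewer cells of a type from less RNA per cell.

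The 7 libraries lay in different places of the deposited table. Control 1 and SCFA 1 to 3 were among its first 31 columns, named the first run here, and controls 2 and 3 and SCFA 4 were among its last 12 columns, named the second run. No label says what separates the runs. Library totals ran from 16448649 to 21507527 counts. Messenger RNA of the mitochondrial genome took between 4.89% and 8.17% of the counts in the first run and between 2.50% and 3.73% in the second, and in each run the control libraries lay on 1 side of the SCFA libraries, above them in the first run and below in the second. Over all 43 libraries this share was at least 4.71% in the first run and at most 4.57% in the second. Transcripts of Ddx3y, Eif2s3y, Kdm5d and Uty, which are Y-linked, had 0 counts in all 7 libraries, while Xist had between 9390 and 15650.

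Principal component 1 of log2 CPM (CPM being counts adjusted for library size), with 59.9% of the variance, placed all first-run libraries on one side and all second-run libraries on the other. Control 1 lay at -43.1 and SCFA 1 at -36.1, followed by SCFA 2 at -7.47 and SCFA 3 at -2.34. The second-run libraries followed with SCFA 4 at 16.3, control 3 at 22.5 and control 2 at 50.3. Controls 1 and 2 therefore took the ends of this component, with SCFA 1 nearest control 1 and control 3 nearest SCFA 4.

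**Figure D1:**
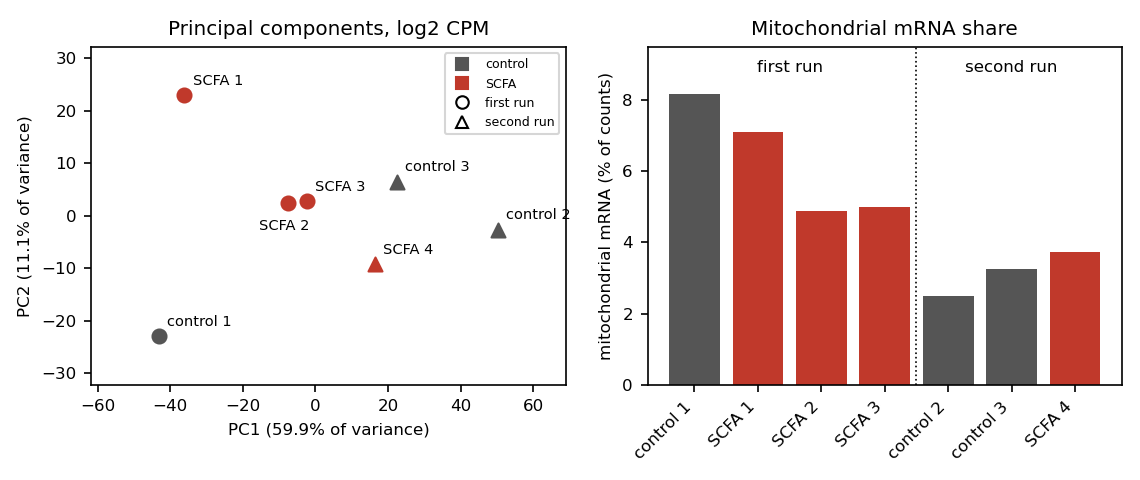
Left, the 7 libraries on the first 2 principal components of log2 CPM (axes: component scores, with the share of variance), control in grey, SCFA in red, circles for the first run and triangles for the second. Right, mitochondrial mRNA as a percentage of all counts in each library. The runs separate on component 1, and control 1 (8.17%) and control 2 (2.50%) hold the highest and lowest mitochondrial shares.

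With the run as a covariate, 0 of 16911 genes tested (0%) were called by edgeR's quasi-likelihood test, a call being an adjusted p below 0.1 together with a log2 fold change beyond 1 in either direction. No gene passed at any fold, and every adjusted p was close to 1. Without adjustment, 201 genes were higher and 231 lower in SCFA at p below 0.05, which is 1.19% and 1.37% of the genes tested. DESeq2 with the same covariate called 8 genes, 0.0266% of the genes it fitted, with adjusted p between 0.0398 and 0.0987. The 6 lower genes were Bmp2, Penk, Slc13a4, Best2, Apold1 and Depp1, and the 2 higher ones were the unnamed transcripts 4632432E15Rik and Gm20045. The replicate numbers met the rule used for pairing, although 1 unmatched pair correlated more than 2 of the 3 matched ones, and a fit of replicates 1 to 3 with the number as a block and the run as covariate called 17 genes, 0.0957% of those tested, of which 16 were lower. That fit has 1 residual degree of freedom. In replicates 2 and 3 the control is of the second run and the SCFA library of the first. Treatment is therefore read from control 1 and SCFA 1 alone. The 16 include 5 crystallins of the lens, Optc, Penk, Slc13a4, Slc26a4, Egr1 and mt-Co3, and the single higher gene was Cyp1b1, a cytochrome P450. Nothing in the labels says whether the pools of a group came from separate litters or batches, so p-values measure only the spread between these libraries.

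The result turned on which libraries were compared. SCFA 1 to 3 against controls 2 and 3, the libraries listed in the study's tables, called 651 genes, 346 higher and 305 lower, 3.89% of 16742 tested. In that comparison every SCFA library is of the first run and both controls are of the second, so that treatment and run cannot be told apart. The paper states that quality assessment lowered the number of samples in some female groups. Control 1, which the study's tables do not list, is the only first-run control here. Every direction within the first run, and so in both runs, rests on it. The second run against the first, from the same model that gave 0 genes for SCFA, called 592 genes, 3.5% of those tested. Of the 651 genes, 646 were tested in all 7 libraries, where their median absolute log2 fold change was 0.274 against 1.42 in the 5 libraries that chose them. Within the runs, 235 of the 646 had groups that did not overlap and lay in opposite directions, while 58 were higher and 30 lower in SCFA in both runs. Of all genes tested, 27.7% lay in opposite directions, 7.12% were higher and 4.73% lower in both runs, so the 58 and 30 are near the shares of all genes.

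Of all 16911 genes, 2004 held a common direction in both runs, in the sense that no SCFA library overlapped a control library within either run. These are 11.9% of the genes, 1204 higher in SCFA (7.12%) and 800 lower (4.73%). More genes, 4689 or 27.7%, did not overlap in either run but in opposite directions. With a single control in the first run and a single SCFA library in the second, groups can fail to overlap by order alone. Neither count was tested against that. The sign of the mean difference, overlap allowed, was shared by 37.1% of the genes. Across genes, which are not independent, the differences of the runs had a Pearson correlation of -0.232 and a Spearman correlation of -0.305. The runs share no library here, but they share the scaling and the filter. Without control 2 the count of genes with a common direction was 4049, and without control 3 it was 3369. The removal of a library leaves fewer chances to overlap.

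**Figure D2:**
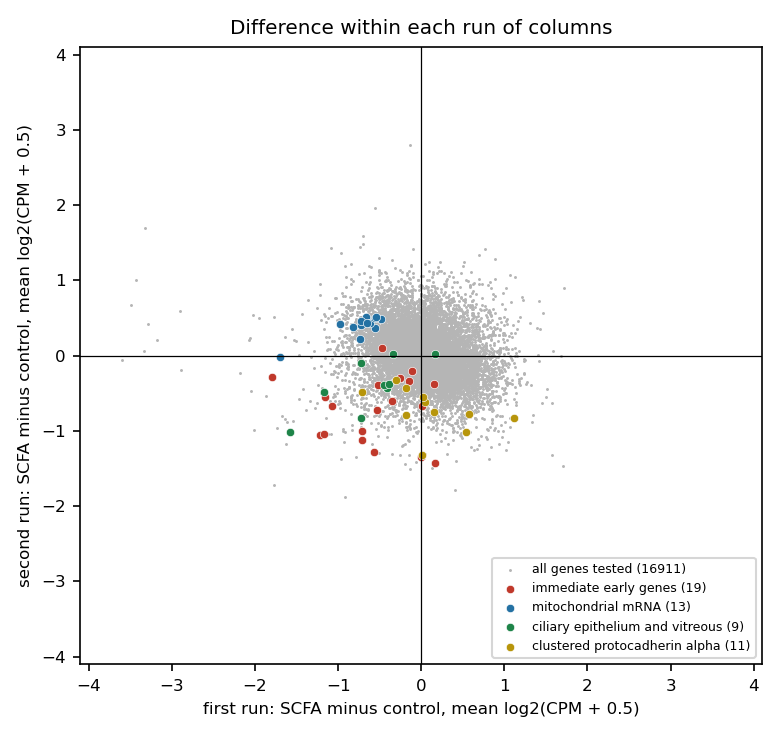
Each point is a gene, with the SCFA minus control difference of mean log2(CPM + 0.5) in the first run (x axis, 3 SCFA and 1 control) and in the second run (y axis, 1 SCFA and 2 control). Immediate early genes and genes of the ciliary epithelium and vitreous lie mostly in the lower left quadrant, mitochondrial mRNAs in the upper left, and protocadherin alpha genes below 0 on the y axis.

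Immediate early genes had lower values in SCFA as a list, although none was called. Such genes are transcribed within minutes of neuronal activity, growth factors, stress or handling and include the AP-1 subunits Fos and Junb, the zinc-finger factors Egr1 to Egr4 and the orphan nuclear receptors of the Nr4a family. All 19 of the 20 listed genes that passed the filter had a fold change below 0, with a median log2 fold change of -0.79 against 0.015 for all genes tested. Of the 19, 9 were lower at an unadjusted p under 0.05 (1.37% of all genes) and 0 higher. Dusp1, Egr3, Egr4, Nr4a1 and Cdkn1a were lower without overlap in both runs, 5 of 19 against 4.73% of all genes.

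Several of these genes are known targets of CREB, which binds the cyclic AMP response element TGACGTCA or its core pentamer CGTCA. The 250 bases before the RefSeq start of Nr4a1, Dusp1 and Egr4, which were lower in both runs, and of Fos, which was not, are given to show where the pentamer lies. Cdkn1a, also lower in both runs, held 0 pentamers in both of its windows and is not printed, and Egr3 was not matched. Capitals mark CGTCA or its reverse complement TGACG, which overlap where they form the full element. Positions are chr15:101266596-101266845 (plus strand), chr17:26508473-26508722 (minus strand), chr6:85513590-85513839 (minus strand) and chr12:85473640-85473889 (plus strand) of GRCm38.p6.
Nr4a1: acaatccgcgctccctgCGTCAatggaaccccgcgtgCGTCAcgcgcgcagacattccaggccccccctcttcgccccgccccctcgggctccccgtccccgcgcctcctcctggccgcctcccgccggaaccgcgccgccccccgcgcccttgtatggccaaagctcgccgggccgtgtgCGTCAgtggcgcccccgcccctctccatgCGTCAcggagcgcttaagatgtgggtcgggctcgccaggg
Dusp1: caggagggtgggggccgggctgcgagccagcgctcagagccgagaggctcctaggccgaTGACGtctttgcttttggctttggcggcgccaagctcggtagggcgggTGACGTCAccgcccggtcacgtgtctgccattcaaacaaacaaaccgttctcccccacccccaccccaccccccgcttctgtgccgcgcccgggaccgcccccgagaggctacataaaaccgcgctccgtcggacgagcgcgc
Egr4: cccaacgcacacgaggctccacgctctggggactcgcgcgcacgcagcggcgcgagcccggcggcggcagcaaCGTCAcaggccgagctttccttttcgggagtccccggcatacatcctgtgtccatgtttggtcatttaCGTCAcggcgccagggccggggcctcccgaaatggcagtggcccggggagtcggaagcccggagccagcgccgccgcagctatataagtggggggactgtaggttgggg
Fos: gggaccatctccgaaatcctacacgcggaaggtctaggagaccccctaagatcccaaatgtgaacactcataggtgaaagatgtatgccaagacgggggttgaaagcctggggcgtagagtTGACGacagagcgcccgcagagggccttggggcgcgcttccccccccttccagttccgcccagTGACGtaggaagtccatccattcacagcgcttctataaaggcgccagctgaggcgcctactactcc
Nr4a1 held 4 such pentamers, Dusp1 3, of which a pair forms the full element, and Egr4 and Fos 2 each. Of 32851 RefSeq promoter windows of this length, 17.8% held at least 1 pentamer on either strand, 3.9% at least 2, and 1.55% the full element. Promoters were matched for 16 of the 20 listed genes, and 13 of the 16 held at least 1 pentamer in any of their windows. A match describes the letters and does not show that a factor was bound.

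Nr4a1, an orphan nuclear receptor induced by activity and stress, had 61.6 CPM in control 1 against 21.8, 30.4 and 30.3 in SCFA 1 to 3. In the second run it had 30.5 and 119.9 CPM in controls 2 and 3 and 29.3 in SCFA 4. Controls 1 and 3 stood above all SCFA libraries, while control 2 exceeded SCFA 4 by little. Its log2 fold change was -1.26 ± 0.38 (SE, unadjusted p = 0.0066 in edgeR's quasi-likelihood test).

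Fos, the AP-1 subunit, had 73.0 CPM in control 1, 33.3, 36.2 and 33.9 in SCFA 1 to 3, 21.1 and 101.6 in controls 2 and 3, and 28.9 in SCFA 4. Here control 2 lay below every SCFA library, so Fos did not hold its direction in the second run. Egr4 had 4.20 CPM in control 1, 0.982, 1.32 and 2.59 in SCFA 1 to 3, 1.37 and 6.96 in controls 2 and 3, and 1.30 in SCFA 4. The SCFA libraries spanned a narrower range than the controls for each of these genes.

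Dusp1, a phosphatase that ends MAP kinase signalling, had a log2 fold change of -1.02 ± 0.35 (SE), Fosb -1.02 ± 0.32 and Egr1 -1.34 ± 0.51. Summed over the list, the controls had 575.2, 333.8 and 904.3 CPM and the SCFA libraries between 329.3 and 433.9. Control 2 thus sat inside the SCFA range and controls 1 and 3 above it. Without control 2, edgeR called 9 genes, all lower, 0.0535% of those tested, and these include Fos, Egr1 and Nr4a1. Without control 3 the median of the list was -0.28 and without control 2 it was -1.0.

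**Figure D3:**
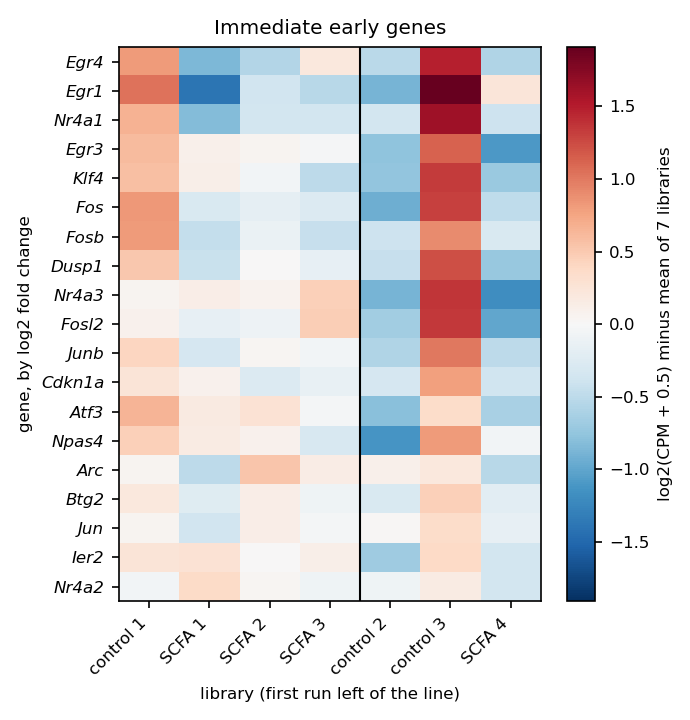
Immediate early genes (rows, by log2 fold change) in the 7 libraries (columns), as log2(CPM + 0.5) minus the mean of the gene over the 7 libraries. Controls 1 and 3 are above the mean for most genes, whereas control 2 is among the lowest libraries for Fos and Npas4.

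Genes of vessels and of the response to flow had a mixed pattern. Klf2, the flow-induced factor of endothelium, had 22 CPM in control 1, 10.4, 10.7 and 9.21 in SCFA 1 to 3, 6.62 and 26.5 in controls 2 and 3, and 6.24 in SCFA 4. Apold1, an endothelial early response gene, had 9.77 CPM in control 1, 2.53, 2.96 and 2.99 in SCFA 1 to 3, 2.40 and 14.3 in controls 2 and 3, and 2.39 in SCFA 4. Both held their direction in both runs, and in both genes control 2 and SCFA 4 were nearly equal while controls 1 and 3 stood high, as for the immediate early genes.

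Ccn1, a matricellular protein secreted on growth factor signalling, had a log2 fold change of -2.17 ± 0.59 (SE). Its values were 17.8 CPM in control 1, between 4.28 and 6.05 in SCFA 1 to 3, 3.02 and 27.4 in controls 2 and 3, and 2.50 in SCFA 4. Bmp2, a ligand of the BMP pathway, had 12.8 CPM in control 1, 3.77, 3.78 and 4.68 in SCFA 1 to 3, 2.57 and 6.11 in controls 2 and 3, and 1.95 in SCFA 4. Its log2 fold change was -1.45 ± 0.30 (SE), and DESeq2 gave an adjusted p of 0.0398. With the libraries the study lists, the value for Bmp2 was -0.09.

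Cldn5, the claudin of endothelial tight junctions, went the other way. It had 10.6 CPM in control 1 and 21.1, 17.9 and 19.0 in SCFA 1 to 3, then 15.2 and 14.0 in controls 2 and 3 and 19.2 in SCFA 4. All 4 SCFA libraries were above all 3 controls, across the runs as well as within them, and the log2 fold change was 0.63 ± 0.16 (SE, unadjusted p = 0.0026 in edgeR's test). Of the 16 genes of endothelium and pericytes, Cldn5, Eng and Slco1a4 were higher (7.12% of all genes) and Kcnj8 lower (4.73%) in both runs. Another 6 lay in opposite directions (27.7% of all genes). Cldn5 alone had an unadjusted p under 0.05, and the median log2 fold change was 0.10. Of 23 tested genes of VEGF, angiopoietin and hypoxia signalling, 1 was lower at an unadjusted p under 0.05 (1.37% of all genes). In both runs 3 were higher (7.12%) and 2 lower (4.73%), while 7 lay in opposite directions (27.7%). The median was -0.02.

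Best2 and Optc were lower in both runs with a different order of libraries. Best2, a chloride channel of the non-pigmented ciliary epithelium, had 12.1 CPM in control 1, 3.26, 2.59 and 5.82 in SCFA 1 to 3, 4.34 and 2.60 in controls 2 and 3, and 1.41 in SCFA 4. Optc, the vitreous proteoglycan opticin, had 64.6 CPM in control 1, 23.4, 23.9 and 41.0 in SCFA 1 to 3, 29.8 and 19.8 in controls 2 and 3, and 17.2 in SCFA 4. Each SCFA library was below the controls of its own run, while control 3 was near or below the first-run SCFA libraries.

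Best2 had a log2 fold change of -1.51 ± 0.32 and Optc of -0.86 ± 0.24 (SE). Col18a1, whose C terminus is endostatin, had 73.6 CPM in control 1, 40.1, 37.9 and 57.9 in SCFA 1 to 3, 67.5 and 42.4 in controls 2 and 3, and 30.0 in SCFA 4, a log2 fold change of -0.78 ± 0.20 (SE). The chains of the vitreous collagen IX followed, with log2 fold changes of -0.44 ± 0.15 for Col9a1, -0.44 ± 0.14 for Col9a2 and -0.44 ± 0.15 for Col9a3 (SE). A list of 10 genes of ciliary epithelium and vitreous was put together after these values were seen and is a description only. Of its 9 tested members 7 were lower in both runs, the 7th being Wfdc1, while Col2a1 (log2 fold change -0.18 ± 0.12, SE) and the water channel Aqp1 (0.10 ± 0.13) were not, and the median was -0.44.

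Extracellular matrix genes as a whole had a mixed pattern. Of 39 tested, 9 were lower (4.73% of all genes) and 0 higher (7.12%) in both runs, 13 lay in opposite directions (27.7% of all genes) and the median log2 fold change was -0.03. The 7 with an unadjusted p under 0.05 were all lower (1.37% of all genes) and include 4 genes of the list above. Vcan, the proteoglycan versican, had a log2 fold change of -0.90 ± 0.22, and Ltbp1, which tethers latent TGF-beta to the matrix, of -0.88 ± 0.19 (SE).

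A few transporter genes were named for their p, and no list of transporters was counted. Slc13a4, a sulfate transporter, had 18.4 CPM in control 1, 4.45, 4.83 and 8.36 in SCFA 1 to 3, 12.7 and 6.28 in controls 2 and 3, and 4.61 in SCFA 4. The anion exchanger Slc26a4 (pendrin) had a log2 fold change of -1.72 ± 0.38 and the dicarboxylate transporter Slc13a3 of -1.36 ± 0.29 (SE). Penk, the enkephalin precursor, had 128.8 CPM in control 1, 40.6, 49.0 and 65.9 in SCFA 1 to 3, 51.4 and 25.9 in controls 2 and 3, and 23.8 in SCFA 4. For Penk, control 1 was the highest library by far and control 3 and SCFA 4 differed little.

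The remaining genes with the smallest p among those lower in both runs were Fam107a, Tcim, Emp1, Depp1 and Plin4. Fam107a, an actin-binding protein of glia, had the smallest p of all of them, with 36.8 CPM in control 1, 19.5, 22.9 and 21.3 in SCFA 1 to 3, 28.9 and 25.8 in controls 2 and 3, and 17.3 in SCFA 4. Here all 3 controls were above all 4 SCFA libraries, and the log2 fold change was -0.73 ± 0.13 (SE, unadjusted p = 0.0002 in edgeR's test). Depp1, which is induced by FOXO factors, had a log2 fold change of -1.82 ± 0.41 and Plin4, a coat protein of lipid droplets, of -1.68 ± 0.39 (SE). Their adjusted p in DESeq2 were 0.0987 for Depp1 and 0.301 for Plin4.

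**Figure D4:**
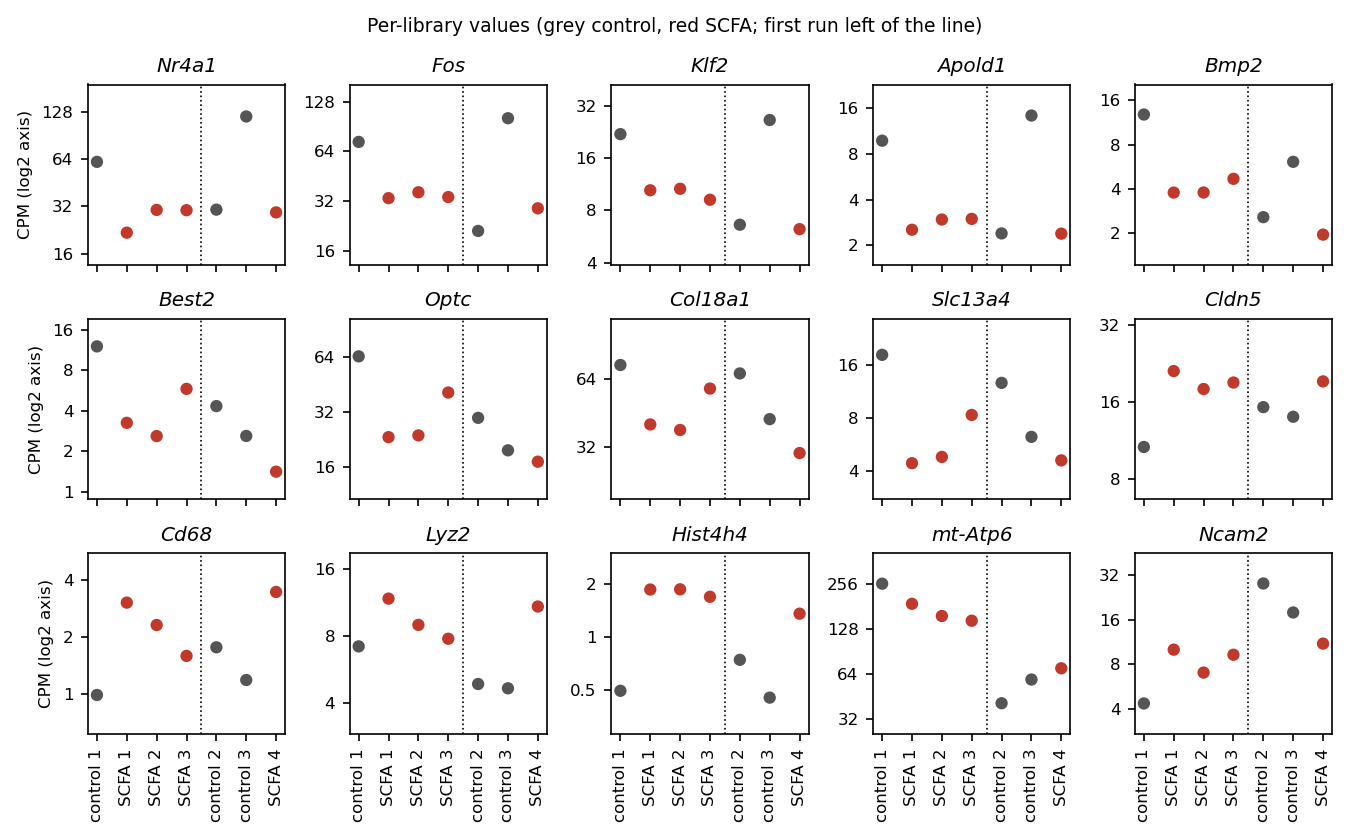
CPM of 15 genes (log2 axis) in the 7 libraries, control in grey and SCFA in red, the first run left of the dotted line and the second right of it. Nr4a1, Klf2 and Apold1 are high in controls 1 and 3, Best2 and Optc are highest in control 1, Cldn5 is higher in all 4 SCFA libraries than in the 3 controls, and mt-Atp6 and Ncam2 separate the runs.

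Summed markers of lens and pigmented tissue were highest in control 1, as were Best2, Optc and Penk. Among SCFA 1 to 3 the order differed. There SCFA 3 had the lowest lens and pigment sums but the highest Best2, Optc and Penk. Summed over the lens list, control 1 had 423.5 CPM, controls 2 and 3 had 39.2 and 50.8, SCFA 1 and 2 had 118.1 and 149.2, and SCFA 3 and 4 had 53.2 and 48.4. Of the 14 lens genes tested, 11 had an unadjusted p under 0.05 and were lower (1.37% of all genes). In both runs 2 were lower (4.73% of all genes), and 7 lay in opposite directions (27.7%). The median log2 fold change was -2.12. Without control 1, which leaves the treatment to be read in the second run alone, the lens median was 0.40. Pigment epithelium and melanocyte genes summed to 474.4 CPM in control 1 and 441.7 in SCFA 1, and to between 127.5 and 286.3 in the other 5 libraries. Tyrp1 of the melanin pathway had a log2 fold change of -0.65 ± 0.29 (SE) and was lower in both runs. The part of lens, pigmented or ciliary tissue in the lower values of Best2, Optc, Penk and the collagens was not tested. Without control 1, where lens counts were highest, the log2 fold change was -1.31 for Best2, -0.55 for Optc, -0.72 for Penk, -0.89 for Col18a1, -0.12 for Col9a1, -0.47 for Col9a2 and -0.43 for Col9a3.

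Genes higher in both runs were spread over several functions. Cd68, the lysosomal glycoprotein of macrophages and microglia, had 0.989 CPM in control 1, 3.05, 2.32 and 1.59 in SCFA 1 to 3, 1.77 and 1.19 in controls 2 and 3, and 3.47 in SCFA 4. Lyz2, the lysozyme of myeloid cells, had 7.17 CPM in control 1, 11.8, 8.97 and 7.77 in SCFA 1 to 3, 4.85 and 4.64 in controls 2 and 3, and 10.9 in SCFA 4. For Lyz2 all 4 SCFA libraries exceeded all 3 controls, and for Cd68 SCFA 3 lay below control 2 of the other run.

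The log2 fold changes were 1.23 ± 0.34 for Cd68 and 0.78 ± 0.23 for Lyz2 (SE, unadjusted p = 0.0044 and 0.0060 in edgeR's test). The microglia list did not move as a whole. Of its 20 genes, Cd68, Itgam and Laptm5 were higher in both runs (7.12% of all genes) and 0 were lower (4.73%). Another 6 lay in opposite directions (27.7% of all genes), and the median was 0.12. Itgam, the alpha chain of complement receptor 3, had a log2 fold change of 0.77 ± 0.37 (SE). The summed microglia level was between 115.5 and 138.6 CPM in the controls and between 123.8 and 152.2 in SCFA. Among 15 Toll-like and scavenger receptor genes tested, 1 was higher (7.12% of all genes) and 1 lower (4.73%) in both runs. In opposite directions lay 8 (27.7% of all genes). The lower gene, Tlr2, is a receptor for bacterial lipopeptides. Its log2 fold change was -1.26 ± 0.45 (SE), at levels no higher than 1.11 CPM. Of 18 antigen presentation genes, Tap1 was higher in both runs (7.12% of all genes). H2-Aa and H2-Ab1, the chains of an MHC class II molecule, were lower in both (4.73%), and 6 genes lay in opposite directions (27.7%). H2-Aa alone had an unadjusted p under 0.05 (-0.72 ± 0.30, SE). Of 20 gliosis genes, Mt2 and A2m, a protease inhibitor, were lower (4.73% of all genes) and 0 higher (7.12%) in both runs. The value for A2m was -0.50 ± 0.16 (SE). Of the same 20, 6 lay in opposite directions (27.7% of all genes), and the median of the list was -0.08.

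Hist4h4 and Hist1h2be, which encode core histones, were named for their p among the genes higher in both runs, and other histone genes were not counted. Hist4h4 had 0.495 CPM in control 1, 1.86, 1.87 and 1.69 in SCFA 1 to 3, 0.742 and 0.452 in controls 2 and 3, and 1.36 in SCFA 4, with all SCFA libraries above all controls. Hist1h2be, of the replication-dependent H2B genes, had 12.5 CPM in control 1, between 18.6 and 20.9 in SCFA 1 to 3, 11.4 and 13.5 in controls 2 and 3, and 15.6 in SCFA 4. Histone genes of a family share sequence, and reads could be split among copies. The log2 fold changes were 1.5 ± 0.39 for Hist4h4 and 0.52 ± 0.16 for Hist1h2be (SE).

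Eps8l1, an actin regulator, had 23.3 CPM in control 1, between 27.7 and 36.1 in SCFA 1 to 3, 32.1 and 37.5 in controls 2 and 3, and 60.9 in SCFA 4, a log2 fold change of 0.63 ± 0.15 (SE). The zinc-finger gene Zfp457 (1.47 ± 0.38), the pseudouridine synthase Pus7l (0.88 ± 0.26), Iqck (0.69 ± 0.21) and Klhl35 (1.47 ± 0.46) were also higher in both runs (log2 fold change ± SE). Myf6, a myogenic factor, and Dlx1as, an antisense transcript at Dlx1, stayed at or below 1.05 CPM in every library, and reads of Dlx1as cannot be told from those of its partner without a strand setting, which is not given in the sources used here.

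Genes that handle SCFAs showed little. The receptors Ffar2, Ffar3 and Hcar2 had 6, 2 and 8 counts in all 7 libraries together and were not tested. Of 11 receptor and transporter genes, 6 were tested, none had an unadjusted p under 0.05, none held a direction in both runs, and the median log2 fold change was 0.06. Of 16 genes of SCFA and ketone metabolism tested, 2 were higher in both runs (7.12% of all genes), Acads and Acsm3. Acsm3, a medium-chain acyl-CoA synthetase, had 0.309 CPM in control 1, between 0.319 and 0.647 in SCFA 1 to 3, 0.285 and 0.226 in controls 2 and 3 and 1.14 in SCFA 4. The 11 histone deacetylases had a median of 0.07, and 0 had an unadjusted p under 0.05.

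Lists of retinal cell type markers had median log2 fold changes near 0 with the run as covariate. The medians were 0.01 for 25 rod genes, -0.06 for 12 cone genes, 0.09 for 15 bipolar genes, 0.15 for 17 amacrine and horizontal cell genes, 0.05 for 12 ganglion cell genes and -0.03 for 12 Müller glia genes, and none of these genes had an unadjusted p under 0.05. Of the Müller glia genes, 9 lay in opposite directions in the runs (27.7% of all genes). So did 9 amacrine and horizontal cell, 7 bipolar, 8 rod, 5 cone and 4 ganglion cell genes. First-run and second-run median differences were 0.50 and -0.26 for amacrine and horizontal cell genes, and 0.45 and -0.17 for bipolar genes. They were 0.25 and -0.38 for Müller glia, 0.11 and -0.01 for ganglion cells, -0.08 and 0.09 for rods and -0.20 and 0.16 for cones. With a library left out, the amacrine and horizontal cell median ran from -0.286 to 0.515. Rod genes took between 112486 and 127262 CPM in the 7 libraries, the lowest in control 2. No unadjusted p was under 0.05 either among 30 genes of ribbon synapses and vesicle release (median 0.06) and 29 transmitter receptors (0.08). The same held for 14 Eph receptors (-0.11), 16 complement genes (-0.07) and 8 myelin genes. In opposite directions lay 15, 18, 6, 5 and 3 genes of these lists, in that order (27.7% of all genes).

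Mitochondrial transcripts followed the run. mt-Atp6, a subunit of ATP synthase, had 259.0 CPM in control 1, 189.6, 156.9 and 145.8 in SCFA 1 to 3, 40.6 and 58.6 in controls 2 and 3, and 69.8 in SCFA 4. SCFA was below control in the first run and above it in the second, and both runs were far apart. Of 13 mitochondrial mRNAs, 11 lay in opposite directions in the runs (27.7% of all genes) and 0 held a direction (11.9%). Their median log2 fold change was -0.15 in 7 libraries, 1.15 with the libraries the study lists and -1.29 for the second run against the first. mt-Co3 alone had an unadjusted p under 0.05 (-0.93 ± 0.31, SE), and its value was -0.06 without control 1.

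Mitochondrial tRNAs and rRNAs had a median of -0.76, with 6 of 17 lower at an unadjusted p under 0.05 (1.37% of all genes) and 4 lower in both runs (4.73% of all genes). The median was -0.09 without control 1 and -1.2 without SCFA 4. The largest fold in this list among those 6 was that of mt-Tw, the tRNA of tryptophan, with 16.4 CPM in control 1, 3.62, 3.23 and 2.89 in SCFA 1 to 3, 1.37 and 6.67 in controls 2 and 3, and 2.61 in SCFA 4. Control 2 lay below SCFA 4, so it held no direction in the second run. Nuclear genes of oxidative phosphorylation (83 tested) had a median of -0.01 in 7 libraries and 0.64 with the libraries the study lists, and cytosolic ribosomal protein genes (78 tested) had -0.13 and 0.68.

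Clustered protocadherins, the adhesion molecules that give neurons their surface identity, followed the run in the other direction. The 11 protocadherin alpha genes had a median log2 fold change of -0.43 in 7 libraries, -2.32 with the libraries the study lists, where 10 were called, and 1.48 for the second run against the first. Of the 11, 2 were lower in both runs (4.73% of all genes) and 3 lay in opposite directions (27.7%). Pcdha11, which was lower in both runs, had 1.42 CPM in control 1 and 0.465, 0.683 and 0.896 in SCFA 1 to 3. In the second run it had 3.14 and 2.71 CPM in controls 2 and 3 and 1.95 in SCFA 4. Protocadherin alpha genes share their last exons, and reads there cannot be given to 1 gene. The 21 gamma genes had medians of -0.06 and -1.0 in the same 2 comparisons. Of 21 beta genes 3 were higher in both runs (7.12% of all genes) and 10 lay in opposite directions (27.7%).

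**Figure D5:**
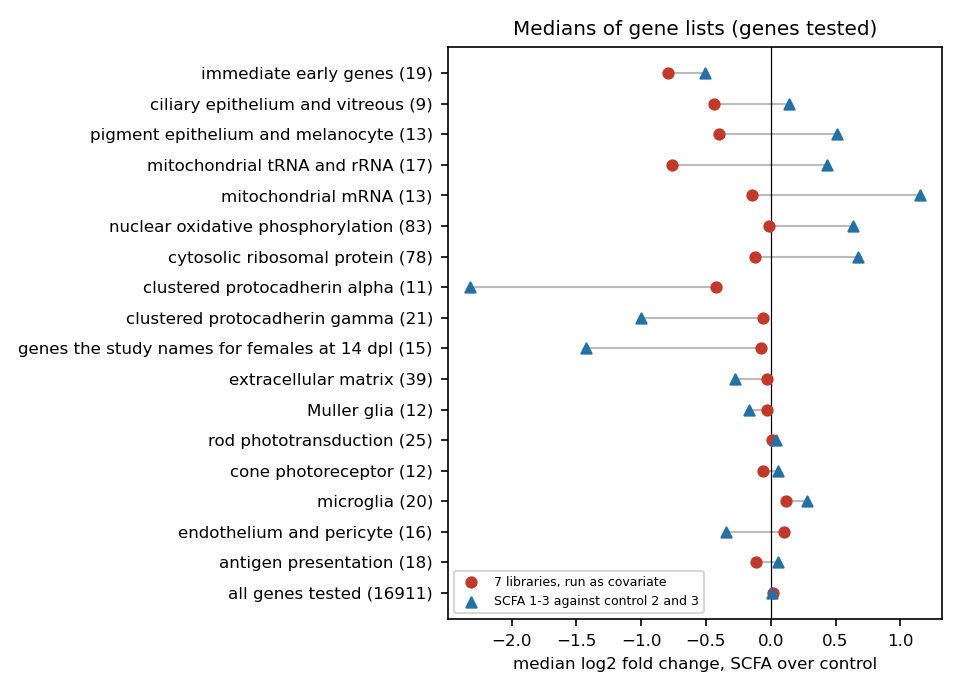
Median log2 fold change, SCFA over control, of gene lists (number of genes tested in brackets), in all 7 libraries with the run as covariate (red circles) and in SCFA 1 to 3 against controls 2 and 3 (blue triangles). Mitochondrial mRNAs move from 1.15 to -0.15 and protocadherin alpha genes from -2.32 to -0.43, whereas immediate early genes are below 0 in both.

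The 15 genes taken from the paper for SCFA-treated females were chosen on 5 of these libraries and are no independent evidence. For mt-Atp6 in SCFA-treated females the paper gives no day. All 15 were called with those 5 libraries, a list median of -1.43, and none had an unadjusted p under 0.05 with the run as covariate in 7 libraries, a median of -0.07. None held a direction in both runs (11.9% of all genes), and 8 lay in opposite directions (27.7%). Ncam2, a neural adhesion molecule, had 4.33 CPM in control 1, 10, 7.01 and 9.26 in SCFA 1 to 3, 28.2 and 17.9 in controls 2 and 3, and 11.0 in SCFA 4. SCFA was above control in the first run and below it in the second, and the log2 fold change was -1.40 ± 0.23 in the 5 libraries and -0.07 ± 0.42 in all 7 (SE).

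Vash1, the angiogenesis inhibitor vasohibin, had 5.07 CPM in control 1, 4.03, 5.64 and 8.07 in SCFA 1 to 3, 26.5 and 14.0 in controls 2 and 3, and 16.2 in SCFA 4. Its SCFA and control libraries overlapped within both runs, while the runs did not overlap. The log2 fold changes with 5 and 7 libraries were -1.78 ± 0.32 and -0.07 ± 0.31 for Vash1, -1.08 ± 0.18 and 0.06 ± 0.24 for the clotting factor Vwf, -2.08 ± 0.41 and -0.36 ± 0.45 for the protease Adamts4, and 1.73 ± 0.19 and -0.13 ± 0.22 for mt-Atp6 (SE).

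Transcript length moved with the run as well. Across genes, the Spearman correlation of length with the log2 fold change was 0.37 for the second run against the first, -0.44 with the libraries the study lists and -0.077 in all 7 libraries with the run as covariate. Genes are not independent replicates, and the part of transcript length in the differences was not tested.

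The response to SCFA was set against that of males at the same day and of females at 7 dpl by interaction terms. Against males (3 SCFA and 3 control libraries, all of the first run), 0 of 17375 genes passed the thresholds in edgeR's test, 0% of those tested, with 2717 at an unadjusted p under 0.05, and DESeq2 called 62. The count was 643 of 18160 genes without SCFA 4, and 307 of 18202 with replicate number as a block and run as covariate. Without SCFA 4 all female SCFA libraries were of the first run, so the female effect was read against control 1 alone. In the males alone 350 of 16039 genes passed, 2.18%, and 11 of the immediate early genes were among them, with a median log2 fold change for that list of -1.07. The values in females and males were -1.26 and -1.14 for Nr4a1, -1.25 and -1.42 for Klf2, and -1.79 and -2.03 for Apold1, with adjusted p for the difference of 0.923, 0.902 and 0.893 in edgeR's test. For Best2 they were -1.51 and 0.01, with a difference of -1.54 and an adjusted p of 0.252, and for Cldn5 0.63 and 0.03, with a difference of 0.59 and an adjusted p of 0.452. A p that misses the threshold does not show that the sexes responded alike.

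Against females at 7 dpl (4 SCFA and 2 control libraries, control 2 of that day being left out because it held Y-linked transcripts), 0 of 17613 genes passed, 0% of those tested, with 782 at an unadjusted p under 0.05. DESeq2 called 54 and the fit with replicate blocks and run 7. The difference between the days in log2 fold change was -0.22 for Nr4a1, -1.44 for Ccn1, -0.79 for Best2 and 1.85 for Cd68, with adjusted p between 0.940 and 0.976 in edgeR's test.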

How the data were processed

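Retinal RNA libraries were sequenced by the authors as paired-end reads and deposited as a table of raw read counts for 54532 genes and 43 libraries. The submitters' processing notes name mm10 and DESeq2. The aligner, annotation and strand setting are not given in the sources used here. Genes were named by identifier with GENCODE M21, which held 54495 of them (37 were not matched and carry identifiers only). Lists and members were chosen with earlier results of these data known.

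Counts were filtered by filterByExpr, scaled by TMM and fitted by edgeR 4.0.16 in R 4.3.3 with the quasi-likelihood test, with run (first 31 or last 12 columns) and treatment as terms, 4 residual degrees of freedom and Benjamini-Hochberg adjustment over all genes. A gene was called at an adjusted p below 0.1 with a log2 fold change beyond 1 in either direction. CPM values of genes are TMM-scaled and summed CPM of lists are per library total. A standard error is the fold change divided by the root of F. Direction was read from CPM within each run, and mean differences from log2(CPM + 0.5). DESeq2 1.42.0 was run as an alternative, and a gene without an adjusted p was not called. Fits of 1 run alone hold a single library in one arm, which is assumed to vary like the others. The pairing check, a correlation of deviations from group means, gave 0.516, 0.275 and 0.196 for replicates 1 to 3 across groups, and 0.424 for the unmatched control 2 and SCFA 3. The fits were tested on simulated data. A total of 16448649 to 21507527 counts makes 3 counts equal to between 0.139 and 0.182 CPM, the limit below which a gene was taken as not detected. This limit covers counting error only.

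The genes named are, in each direction, the 12 with an established name and the smallest p among those that did not overlap within either run, members of the lists with the smallest p, and genes the paper names. One gene that this rule names is not reported here. None passed the thresholds, so all are given as not called. Promoters are 250 bases before the RefSeq start. Figures were drawn with matplotlib 3.10.9. Alternatives were another scaling, filter, tool, set of libraries, threshold and pairing, and the removal of each library.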

Additional observations from a re-analysis of the deposited data

Results flagged for a closer look

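Of 60 named genes, 4 had a library of the SCFA group (n = 4) whose gap to its nearest neighbour took a larger part of the range of the group than Dixon's critical value for 4 values allows. Chance gives about 1 in 20 such groups. Nr4a1 stood at 21.8 CPM in SCFA 1, with the other libraries between 29.3 and 30.4. Slc13a4 was 8.36 CPM in SCFA 3 against 4.45 to 4.83 in the others. Egr3 was 0.76 CPM and Tcim 0.651 CPM in SCFA 4, the only SCFA library of the second run, against 2.14 to 2.38 and 1.64 to 1.78 CPM in the first-run libraries. No named gene passed the thresholds for a difference between the sexes or between the days.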

How the results depend on the processing

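The count of 0 genes for SCFA against control was kept with no run covariate, within the first run, with all 43 libraries in one fit, with RLE scaling or none, with either filter, at an adjusted p under 0.05, without a fold threshold, in a robust fit and with a replicate block without run. It became 651 with the libraries the study lists, 47 in the second run only (1 residual degree of freedom, a single SCFA library), 8 with DESeq2, and 17 with a replicate block and run. Leaving out a library in turn gave 0 to 9, the 9 without control 2. The 2004 genes of common direction kept within 1.5 times under every other scaling, filter and pseudocount, and ran from 2319 to 4049 with a library left out. The difference from males rose from 0 to 62 with DESeq2, 189 with no filter and 307 with a replicate block and run. It ran from 0 to 643 with a library left out, the 643 without SCFA 4, where the female effect rests on control 1. The difference from 7 dpl was 54 with DESeq2, 39 with no filter and 7 with a replicate block and run, and ran from 0 to 4. The causes were not tested.

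Of 1184 values of 60 genes under 20 alternatives, 41 changed sign. With the libraries the study lists these were Best2 0.16, Optc 0.24, Wfdc1 0.41, Col9a1 0.14, Col9a2 0.03, Col2a1 0.21, Aqp1 -0.20, Slc13a3 0.39, Emp1 0.52, Penk 0.42, Eps8l1 -0.12, mt-Co3 0.96, mt-Atp6 1.73, Vwf -1.08, H2-Aa 0.52 and Tyrp1 0.04 (log2 fold change). With a replicate block without run they were Wfdc1 0.13, Col2a1 0.02, Aqp1 -0.08, mt-Co3 0.06, mt-Atp6 0.95 and Vwf -0.59, and with block and run Ncam2 1.21. With no run covariate they were Aqp1 -0.04, mt-Atp6 0.23 and Vwf -0.52. The second run alone gave Col2a1 0.00, mt-Atp6 0.48 and Vwf -0.40, the first alone Vash1 0.19, Adamts4 0.27 and Ncam2 0.99, and all 43 libraries Vwf -0.11. With a library left out, 6 genes changed sign, with ranges of -0.34 to 0.00 for Col2a1, -0.66 to 0.48 for mt-Atp6, -0.34 to 0.23 for Vash1, -0.40 to 0.54 for Vwf, -0.82 to 0.30 for Adamts4 and -1.08 to 1.02 for Ncam2.

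Immediate early genes had a median between -1.0 and -0.28 in all 21 fits. Ciliary and vitreous genes were below 0 in 20 of 21, the exception being 0.14 with the libraries the study lists. That list was put together after these values were seen. Its sign in these fits, and with a library left out, is therefore no independent evidence. Neither list held a gene called by edgeR with run as covariate in all 7 libraries, while DESeq2 called Best2. Without control 2, edgeR called Fos, Egr1 and Nr4a1 of the immediate early genes. The block with run, which reads treatment from control 1 and SCFA 1 alone, called Egr1 and Optc. Of the 33 lists, 4 (immediate early, ciliary and vitreous, pigmented tissue, mitochondrial tRNA and rRNA) kept the sign of their median with any library left out, and the lens, mitochondrial mRNA and protocadherin alpha medians were among those that did not.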
